A study of Prunus persica with 21 samples.

Results

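The genes described here were the expressed peach genes whose transcripts were most strongly induced 1 h after leaves were sprayed with either of the plant elicitor peptides PpPep1 and PpPep2. A gene was a member when its mean in untreated leaves was at least 0.5 CPM (a gene's count scaled to a common library total) and its mean at 1 h was at least 8 times that level with each peptide. Of 27107 genes in the table, 16689 reached 0.5 CPM at t0 and 100 of these met both folds. A further condition took out 12 listed identifiers, 8 of which had met the thresholds, and left 92 members. The members were thus selected on their measured CPM at t0 and at 1 h, and their rise from t0 to 1 h is given below as a description without a test. The peptides were also compared at 1 h in the same libraries that chose the members, so those tests are no independent evidence on them.

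Young peach plants (Prunus persica var. Big Top, raised in vitro) were sprayed on their youngest full-grown leaves with 100 nM PpPep1 or 1000 nM PpPep2, and leaf blades without the midrib were sampled 1, 24 and 48 h later. Untreated leaves sampled at time zero (t0) were the shared control, and each of the 7 groups held 3 libraries, each a biological replicate of 9 plants. Each peptide was used at its own dose, so peptide and dose cannot be told apart, and no mock-sprayed leaves at 1, 24 or 48 h were analysed here, so the effect of the peptide cannot be told apart from that of spraying or of time. The paper reports RT-qPCR of selected genes in mock plants over these times, with no significant change found. Column totals were between 33231519 and 59317510 counts.

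The headers of 9 of the 21 columns did not match the libraries they name. In the study's mapping statistics the column headed p1t48 had the totals of the PpPep2 1 h libraries, the column headed p2t1 those of PpPep2 24 h and the column headed p2t24 those of PpPep1 48 h, each with the matching number of genes that made up 25% of the counts. With this reading each column total was 0.963 to 0.982 times the read pairs that its library had placed in single genes. Against the libraries named in their headers, the 9 columns gave ratios of 0.635 to 1.29, and for 0 of them did both numbers match. Groups are named below by the matched libraries. With the headers taken as written, 0 genes met the rule.

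Plant elicitor peptides are short signals cut from larger precursors when cells are damaged. They bind leucine-rich repeat receptor kinases at the cell surface, which act with the coreceptor BAK1, and the signal passes through calcium influx and mitogen-activated protein kinases to the nucleus. The transcripts that rise first after such a signal typically code for transcription factors, receptor-like proteins and kinases, ubiquitin ligases and proteins that limit the response, and many of them fall back within hours.

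In untreated leaves the members were weakly expressed genes. Their t0 means ran from 0.516 to 39.4 CPM with a median of 1.80 CPM, and 29 of the 92 lay under 1 CPM. At 1 h the median member stood at 31.2 CPM with PpPep1 and 38.9 CPM with PpPep2. The median ratio to t0 was 14.7 with PpPep1 and 18.9 with PpPep2, while the median over all 16689 expressed genes was 0.909 and 0.905. The members together took 0.510 ± 0.0921% of all counts with PpPep1 and 0.618 ± 0.196% with PpPep2 at 1 h, against 0.0304 ± 0.00519% at t0 (SD, n = 3 each). Ratios reached 16 or more with both peptides in 44 members, 32 or more in 13 and 64 or more in 3. The 29 members under 1 CPM at t0 had median ratios of 20.3 with PpPep1 and 25.04 with PpPep2. The 47 members at 1 to 5 CPM had 14.4 and 16.6, and the 16 members above 5 CPM had 13.9 and 18.6. The t0 mean is also the base of the ratio, so a gene read low at t0 gains a higher ratio. The rule used this contrast, so the rise of all 92 members at 1 h is no finding. Over the table as a whole, 5.44% of all 18586 genes tested were called higher (adjusted p under 0.01 by edgeR and a log2 fold change past 1) and 0.463% lower with PpPep1 (5.91% in either direction), and 6.18% higher and 0.479% lower with PpPep2 (6.66%).

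**Figure D1:**
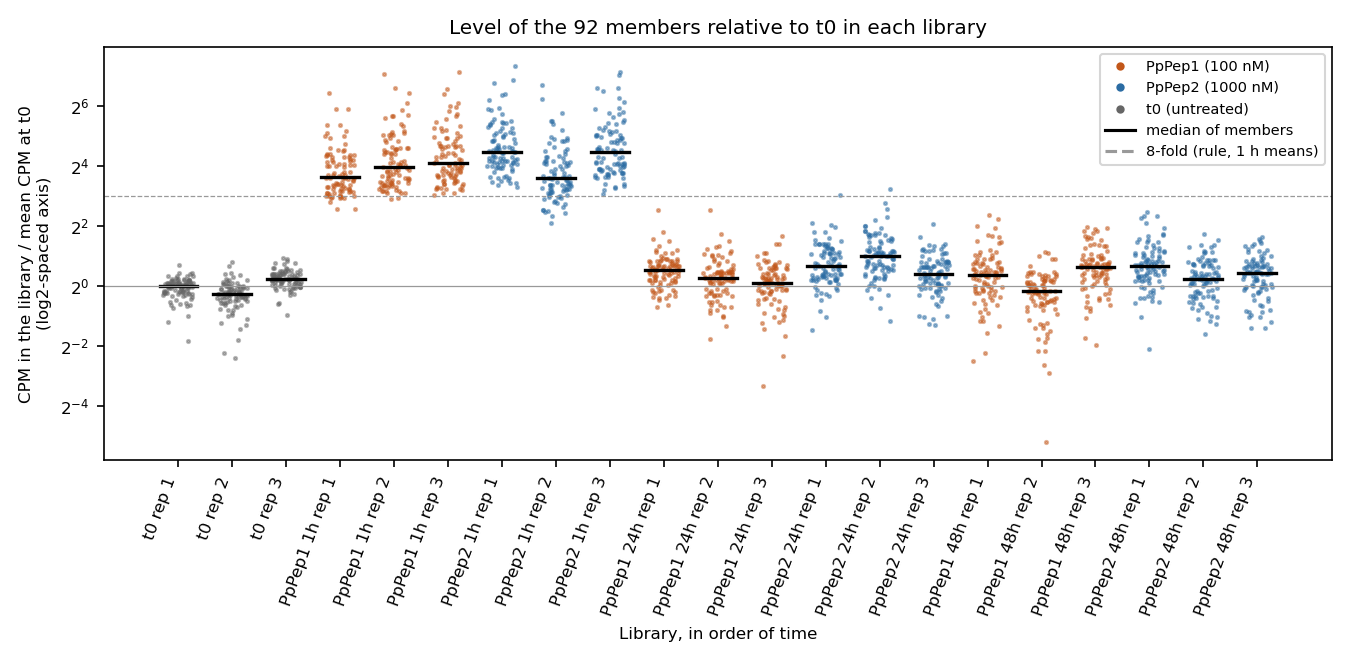
Level of each of the 92 members in each library, as CPM over the gene's t0 mean on a log2-spaced axis, with libraries in order of time, points for members and a bar for their median. All 92 members lie above their t0 mean in the 6 libraries at 1 h (medians 11.9 to 22.01), and the medians at 24 and 48 h lie between 0.879 and 2.00.

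The source files gave a name or description to 22 of the 92 members, since most identifiers in the table carry none. The described members held 4 WRKY transcription factors, 1 ethylene response factor, 1 VQ motif protein, 5 genes with the keywords of receptor-like proteins and kinases, 2 U-box ubiquitin ligases, 1 peroxidase and 8 genes outside the keyword classes. None of the described members fell under calcium sensing and transport, hormone synthesis and signalling, phosphatases or transport. These classes held only 10, 12, 6 and 10 of the 597 described genes in the table, of which 22 were members. Their absence is therefore no result about the members, and genes were placed by keyword alone. Descriptions came largely from lists of gene sets that the study found enriched in these same libraries, so these class counts are not independent of the early response. The leaf label was not checked against leaf markers, since of the tissue markers listed for it the files described only a phloem sucrose transporter (PRUPE_8G030100), at 9.89 to 17.9 CPM over all libraries.

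The 4 WRKY members had median ratios to t0 of 27.2 with PpPep1 and 40.1 with PpPep2. WRKY proteins bind W-box elements, and in Arabidopsis WRKY18 and WRKY40 act together in regulating defence genes while WRKY53 takes part in defence and leaf senescence. The gene described as WRKY40 (PRUPE_3G098100) had 105, 159 and 166 CPM with PpPep1 and 197, 92.3 and 229.9 CPM with PpPep2 at 1 h, against 3.33, 1.67 and 4.80 CPM at t0. Its ratios to t0 were 43.9 and 53.0. Both groups lay far above t0, and the PpPep2 libraries were spread more widely than the PpPep1 ones. A first gene described as WRKY53 (PRUPE_2G307400) had 25.5, 32.5 and 35.1 CPM with PpPep1 and 51.7, 28.6 and 53.1 CPM with PpPep2, against 0.991, 0.690 and 1.23 CPM at t0. The second WRKY53 gene (PRUPE_5G117000) had 54.8, 69.4 and 74.97 CPM with PpPep1 and 134, 67.4 and 105 CPM with PpPep2, against 2.72, 2.86 and 3.33 CPM at t0. Reads that fit both WRKY53 genes may have been split between them by the authors' estimation. The gene described as WRKY18 (PRUPE_1G393000) had the lowest ratios of the 4, 16.3 with PpPep1 and 18.95 with PpPep2. It had 41.4, 59.2 and 66.7 CPM with PpPep1 and 77.8, 39.2 and 77.3 CPM with PpPep2 at 1 h, against 3.56, 2.17 and 4.53 CPM at t0.

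Besides the 4 members, 21 other WRKY genes with a description were tested, of which 15 were called higher and 0 lower at 1 h with each peptide. Of all genes, 5.44% were called higher with PpPep1 and 6.18% with PpPep2. Most of the WRKY descriptions come from the enriched lists named above, found in these same libraries. A high share was therefore largely set in advance and is no result about WRKY genes. PTI5 (PRUPE_4G055500), an ethylene response factor known in tomato as a partner of the Pto resistance kinase, averaged 69.5 ± 7.80 CPM with PpPep1 and 94.8 ± 30.3 CPM with PpPep2 at 1 h, against 4.71 ± 1.68 CPM at t0 (SD, n = 3 each). VQ22 (PRUPE_4G116000), one of the VQ motif proteins that bind WRKY factors, averaged 22.02 ± 3.402 CPM with PpPep1 and 29.4 ± 9.39 CPM with PpPep2, against 1.98 ± 0.515 CPM at t0. SARD1 (PRUPE_5G223600), in Arabidopsis an activator of salicylic acid synthesis genes in systemic acquired resistance, had 46.1, 44.6 and 58.1 CPM with PpPep1 and 66.1, 32.4 and 42.4 CPM with PpPep2 at 1 h, against 4.57, 3.25 and 5.30 CPM at t0. For SARD1 the mean was thus slightly higher with PpPep1, which held for 11 of the 92 members.

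At the cell surface, BIR1 (PRUPE_8G186400) was the described receptor kinase with the highest level. In Arabidopsis BIR1 binds BAK1 and restrains cell death and defence. It had 152, 185 and 218 CPM with PpPep1 and 272, 159.7 and 233 CPM with PpPep2 at 1 h, against 16.5, 14.9 and 19.7 CPM at t0, ratios of 10.8 with PpPep1 and 12.97 with PpPep2. RLP52 (PRUPE_7G219300), a receptor-like protein without a kinase domain that is linked to fungal resistance in Arabidopsis, averaged 46.0 ± 3.25 CPM with PpPep1 and 51.1 ± 9.57 CPM with PpPep2, against 2.75 ± 0.431 CPM at t0. A pair of genes described as rust resistance kinase Lr10-like lay within a span of 7 identifiers on chromosome 2. PRUPE_2G088900 had ratios of 13.6 with PpPep1 and 16.6 with PpPep2, and PRUPE_2G088300 had ratios of 8.95 and 15.2 from a t0 mean of 0.540 ± 0.308 CPM. The receptor-like kinase described by its Arabidopsis counterpart At1g11050 (PRUPE_1G490800) and the kinase CCR4 (PRUPE_1G556500) had ratios of 10.5 and 13.02 with PpPep1, and 14.6 and 13.8 with PpPep2.

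The described members also held genes of protein and RNA turnover, which are given here with some others. U-box proteins are ubiquitin ligases that mark other proteins for breakdown. U-box domain-containing protein 21 (PRUPE_3G164200) had 35.8, 43.7 and 45.2 CPM with PpPep1 and 61.4, 31.8 and 56.1 CPM with PpPep2 at 1 h, against 0.293, 1.81 and 1.02 CPM at t0. Its t0 libraries were spread widely, so the base of its ratios, 39.9 and 47.8, is uncertain. PUB28 (PRUPE_8G024500) averaged 72.0 ± 11.5 CPM with PpPep1 and 80.7 ± 30.8 CPM with PpPep2, against 3.22 ± 0.396 CPM at t0. CAF1-11 (PRUPE_6G139200), a homolog of the deadenylase that shortens mRNA tails, had 104, 129.6 and 139.7 CPM with PpPep1 and 149, 66.4 and 115 CPM with PpPep2, against 4.66, 6.88 and 6.48 CPM at t0. The Avr9/Cf-9 rapidly elicited gene (PRUPE_5G133200) had ratios of 15.3 with PpPep1 and 14.4 with PpPep2. The gene described as transmembrane protein (PRUPE_1G095900) had ratios of 19.2 with PpPep1 and 26.4 with PpPep2. Besides the members, 9 of 14 other described genes of ubiquitin ligases and protein degradation were called higher with PpPep1 at 1 h and 10 with PpPep2, and of 46 other genes of the receptor and kinase class 24 and 26 were, where 5.44% and 6.18% of all genes tested were. These genes too carry descriptions that come largely from the enriched lists, so their shares are no result about these classes.

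Peroxidase 44 (PRUPE_7G016500), one of the secreted peroxidases that act on the cell wall, was the most abundant member at 1 h and at t0. It had 342, 388 and 389 CPM with PpPep1 and 619.8, 225 and 689.9 CPM with PpPep2 at 1 h, against 28.3, 43.9 and 45.9 CPM at t0. Among all genes ordered by mean level it stood at place 261 with PpPep1 and at place 175 with PpPep2, against 4145 at t0. A further 3 described members fall outside the rule for named genes and were chosen after their values were seen. IQM1 (PRUPE_7G206600), a calmodulin-binding IQ domain protein, had ratios of 59.4 with PpPep1 and 72.3 with PpPep2, the highest of the 22 described members. The metalloendoproteinase 2-MMP (PRUPE_1G261000) and the phosphatidyltransferase pgsA (PRUPE_1G261100), carry consecutive identifiers on chromosome 1, and had ratios of 13.7 and 46.4 with PpPep1, and 12.8 and 42.4 with PpPep2.

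The highest ratios of all belonged to genes without a description. PRUPE_4G103200 had 71.1, 111 and 117 CPM with PpPep1 and 134.5, 86.9 and 116 CPM with PpPep2 at 1 h, against 0.675, 0.812 and 1.02 CPM at t0, ratios of 119 and 134. Its neighbour PRUPE_4G103100 had ratios of 83.0 and 95.1, and the next identifier before it was also a member. In all, 23 of the 92 members had another member within 10 identifiers on the same chromosome, in 9 runs of 2 to 4 genes. If such neighbours are copies of one another, the counts of one may hold reads of the other, and this was not tested because no sequence was at hand. Members lay on all 8 chromosomes, with 21 of 3796 expressed genes on chromosome 1, 15 of 1927 on chromosome 3 and 6 of 1637 on chromosome 8.

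At the edge of the rule the 3 members with the lowest smaller ratio had 8.06, 8.13 and 8.19, and the 3 genes that missed it most narrowly had 7.93, 7.88 and 7.85. The second of these is described as ferrochelatase-2 (PRUPE_1G414400), with ratios of 7.88 with PpPep1 and 10.2 with PpPep2. A floor of 1 CPM at t0 kept 63 of the 92 members. Leaving out single libraries of t0 or 1 h gave 85 to 103 genes.

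**Figure D2:**
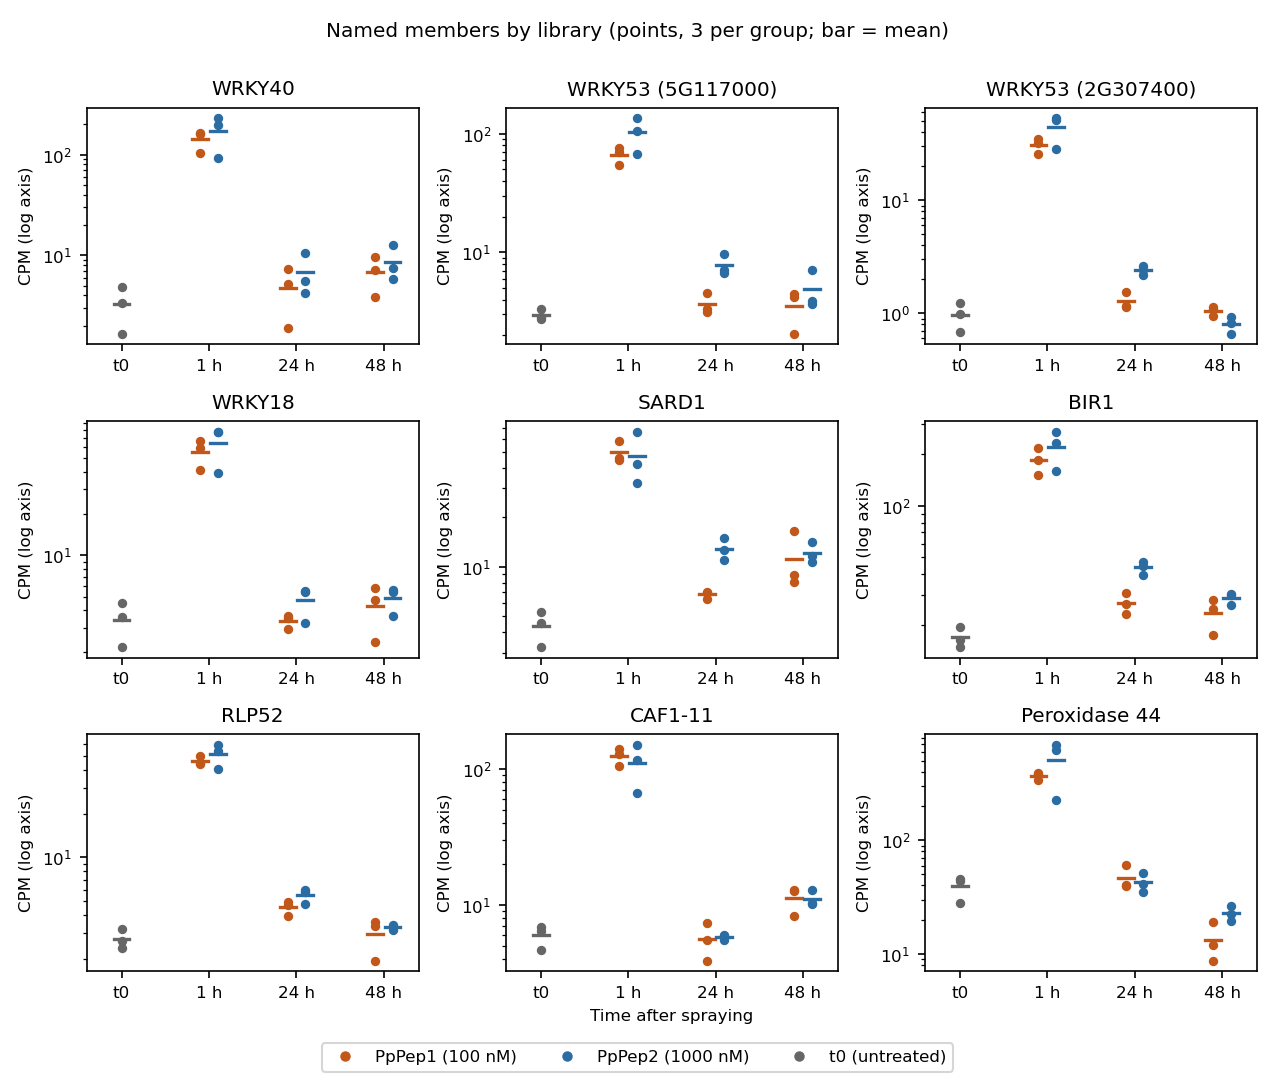
CPM on a log axis in every library for 9 described members by time, with PpPep1 (100 nM), PpPep2 (1000 nM) and t0 in separate colours, 3 points per group and a bar for the mean. All 9 peak at 1 h. SARD1, BIR1 and RLP52 stand above their t0 points at 24 h with both peptides, and both WRKY53 genes do so with PpPep2 only. Peroxidase 44 lies at 8.72 to 26.5 CPM at 48 h, under its lowest t0 library.

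The members moved together between replicates. The median coefficient of variation of a member was 17.4% with PpPep1 and 32.8% with PpPep2 at 1 h, against 26.7% at t0, and those of all expressed genes were 6.33%, 9.39% and 10.1%. PpPep2 replicate 2 was the lowest of its 3 libraries in 89 of the 92 members and had a median ratio of 11.9, against 22.01 and 21.9 in replicates 1 and 3. Over all expressed genes this library was the lowest of the 3 in 27.8%. It was sequenced on the same flowcell as replicate 3, and replicate 1 on that flowcell and others. PpPep1 replicate 1 was the lowest of its group in 85 members (32.7% of all expressed genes), with a median ratio of 12.4 against 15.4 and 16.9, and it was sequenced on other flowcells than replicates 2 and 3. At 48 h PpPep1 replicate 2 was the lowest in 75 members (24.6% of all expressed genes), and all libraries of its group shared the same flowcells. A part of flowcell or of handling in these shifts was not tested. In samples of whole leaf blades, fewer responding cells and less RNA per cell cannot be told apart.

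The members had lost most of the rise by 24 h. Over the 92 members the median share of the 1 h rise that was left was 1.27% with PpPep1 and 3.13% with PpPep2 at 24 h, and 1.33% and 1.88% at 48 h, with a highest value of 26.1% in any of the 4 groups. In the libraries of PpPep1 24 h the median ratio to t0 was 1.24 ± 0.180, in those of PpPep2 24 h 1.63 ± 0.340, in those of PpPep1 48 h 1.25 ± 0.344 and in those of PpPep2 48 h 1.37 ± 0.200, against 1.00 ± 0.170 in the t0 libraries (SD, n = 3 each). At 24 h 5 members still stood over 2-fold above t0 with PpPep1 and 30 with PpPep2, where 0.455% and 1.11% of all expressed genes did, and 0 and 1 stood below 0.5 of t0, where 1.498% and 0.893% did. At 48 h 12 stood over 2-fold above t0 with PpPep1 and 15 with PpPep2, where 1.83% and 1.31% of all expressed genes did, and 6 and 2 stood below 0.5 of t0, where 3.27% and 1.85% did. These later comparisons share the t0 libraries with the rule, so a gene that was read low at t0 was favoured both as a member and as a gene that is still high.

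At 24 h with PpPep2, 8 of the 92 members were called higher than t0 and 0 lower by edgeR's quasi-likelihood test, with p adjusted after Benjamini and Hochberg under 0.01 and a log2 fold change past 1. This is 8.70% of the members, where 1.02% of all genes tested were called higher and 0.296% lower (1.31% in either direction). At an unadjusted p under 0.05 edgeR had 44 members higher and 1 lower, where 11.1% and 9.26% of all genes reached this (20.3% in either direction), and DESeq2 called 17 higher and 0 lower, where it called 1.72% of all genes. BIR1 had 44.7, 47.0 and 39.5 CPM with PpPep2 at 24 h, against 16.5, 14.9 and 19.7 CPM at t0 (log2 fold change 1.36, SE 0.19, adjusted p = 0.000364 by edgeR), and its groups did not overlap. SARD1 had 12.7, 14.9 and 10.96 CPM, against 4.57, 3.25 and 5.30 CPM (log2 fold change 1.56, SE 0.29, adjusted p = 0.00338 by edgeR). The first WRKY53 gene (PRUPE_2G307400) had 2.41, 2.61 and 2.17 CPM, against 0.991, 0.690 and 1.23 CPM (log2 fold change 1.32, SE 0.26, adjusted p = 0.0044 by edgeR). RLP52 had 5.79, 5.99 and 4.80 CPM, against 2.39, 2.64 and 3.23 CPM (log2 fold change 1.01, SE 0.19, adjusted p = 0.00300 by edgeR). For all 4 genes every treated library lay above every t0 library. Of the genes without a description, PRUPE_1G292500 had the largest log2 fold change, 2.60 (SE 0.35), with 8.70, 6.32 and 4.46 CPM with PpPep2 against 1.33, 1.16 and 0.700 CPM at t0. The gene with the adjacent identifier was also called (adjusted p = 0.00941 by edgeR), but lost the call without any one of the 6 libraries compared. PRUPE_1G045600 had a log2 fold change of 1.61 (SE 0.27). The second WRKY53 gene, at 7.82 ± 1.64 CPM against 2.97 ± 0.315 CPM, did not pass (log2 fold change 1.40, SE 0.33, adjusted p = 0.0171 by edgeR), and neither did VQ22 at 4.96 ± 0.742 CPM against 1.98 ± 0.515 CPM (adjusted p = 0.0135 by edgeR, SD, n = 3 each).

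The count of 8 fell to 3 without t0 replicate 1, to 4 without t0 replicate 2, to 5 without PpPep2 24 h replicate 1 and to 4 without its replicate 2, and was 17 with DESeq2. RLP52 lay at the fold threshold and its log2 fold change was 0.996 with DESeq2. Leaving out these libraries ended the call of WRKY53 (adjusted p of 0.0139 to 0.0286 by edgeR) and of RLP52 (0.0114 to 0.0265), and all of them except PpPep2 24 h replicate 1 ended that of SARD1 (0.0177 to 0.0210). BIR1, PRUPE_1G292500 and another member without a description (log2 fold change 1.45, SE 0.17) were called in each of 14 alternative settings.

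At 24 h with PpPep1, 1 of the 92 members was called higher than t0 and 0 lower, or 1.09% where 0.393% of all genes tested were called higher and 0.533% lower (0.925% in either direction). At an unadjusted p under 0.05 edgeR had 23 members higher and 0 lower, where 16% and 13.8% of all genes reached this (29.8% in either direction), and DESeq2 called 3 higher and 0 lower, where it called 1.28% of all genes. No flowcell held both PpPep1 24 h and t0 libraries, and with a flowcell term in the fit 0 members were called. Within a group, flowcells differed at 1 h only, so that term was estimated from libraries of the rule. The lost call is therefore no check of flowcell in this comparison. The member called without that term was PRUPE_2G243600, which has no description. It had 6.15, 4.37 and 2.66 CPM with PpPep1 against 1.49, 1.46 and 2.33 CPM at t0 (log2 fold change 1.42, SE 0.33, adjusted p = 0.00951 by edgeR). The call was lost without any one of t0 replicates 1, 2 and 3 or of PpPep1 24 h replicates 1 and 2, where 0 members were called. BIR1 averaged 26.9 ± 3.82 CPM with PpPep1 at 24 h against 17.1 ± 2.43 CPM at t0 (log2 fold change 0.75, SE 0.19, adjusted p = 0.0154 by edgeR), and its libraries did not overlap those of t0. All 3 PpPep1 24 h libraries lay above all 3 t0 libraries in CPM for 21 members and below them for 2, where the shares over all genes tested were 8.95% and 19%. With PpPep2 this held for 42 members above and 2 below, where the shares over all genes were 12.2% and 9%.

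At 48 h with PpPep1, 7 members were called higher than t0 and 3 lower, which is 7.61% and 3.26% of the members where 2.17% and 2.35% of all genes tested were called (4.52% in either direction). With PpPep2, 5 were called higher and 0 lower, or 5.43% where 1.42% and 1.18% of all genes were called (2.59% in either direction). At an unadjusted p under 0.05 edgeR had 21 members higher and 7 lower with PpPep1, where 26.1% and 21.2% of all genes reached this (47.3% in either direction), and 28 higher and 3 lower with PpPep2, where 22.3% and 17.8% did (40%). By this looser measure the members' shares were thus near or below those of all genes, apart from the higher side with PpPep2. DESeq2 called 8 higher and 6 lower with PpPep1, where it called 4.64% of all genes in either direction, and 8 higher and 0 lower with PpPep2, where it called 2.76%. All 3 PpPep1 libraries lay above all 3 t0 libraries for 15 members and below them for 9, where the shares over all genes were 22.1% and 23.9%, and with PpPep2 this held for 34 and 6, where they were 18.5% and 18.7%. The 48 h libraries carry the names of a separate series and were run on flowcells that held no t0 library, so library series and time cannot be told apart in these comparisons. The 5 members called with PpPep2 were all among the 7 called higher with PpPep1, and these comparisons share their t0 libraries. SARD1 was the described gene among them, at 8.93, 8.09 and 16.5 CPM with PpPep1 and 14.2, 10.7 and 11.6 CPM with PpPep2 at 48 h, against 4.57, 3.25 and 5.30 CPM at t0 (log2 fold changes of 1.42 and 1.52, SE 0.29 each, adjusted p of 0.00117 and 0.00105 by edgeR). It was also the one member called at both 24 and 48 h with PpPep2. PRUPE_2G121500, without a description, had log2 fold changes of 1.75 (SE 0.40) with PpPep1 and 1.62 (SE 0.39) with PpPep2. PRUPE_3G272200 had 1.52 (SE 0.37) with PpPep1 and 1.89 (SE 0.35) with PpPep2.

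Peroxidase 44 was among the 3 members called lower than t0 with PpPep1 at 48 h, with 19.2, 8.72 and 11.9 CPM against 28.3, 43.9 and 45.9 CPM at t0 (log2 fold change -1.51, SE 0.39, adjusted p = 0.00613 by edgeR). With PpPep2 it had 26.5, 22.3 and 19.3 CPM and did not pass (log2 fold change -0.76, SE 0.38, adjusted p = 0.144 by edgeR), although its libraries lay below those of t0. The difference between the peptides for this gene at 48 h did not pass either (log2 fold change -0.75, 95% interval -1.57 to 0.07). The lowest log2 fold change was that of PRUPE_1G319000, -2.32 (SE 0.62), with 0.189, 0.143 and 0.278 CPM with PpPep1 against 0.923, 1.04 and 1.27 CPM at t0. CAF1-11 stood at 11.3 ± 2.62 CPM with PpPep1 and 11.1 ± 1.4996 CPM with PpPep2 at 48 h, against 6.01 ± 1.18 CPM at t0, and did not pass (adjusted p of 0.0162 and 0.0259 by edgeR, SD, n = 3 each). WRKY40 at 6.87 ± 2.95 and 8.63 ± 3.49 CPM, against 3.27 ± 1.57 CPM at t0, did not pass either (adjusted p of 0.128 and 0.0692 by edgeR). The first WRKY53 gene was at 1.06 ± 0.100 CPM with PpPep1 and 0.807 ± 0.137 CPM with PpPep2, close to its 0.969 ± 0.268 CPM at t0.

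The count of 10 with PpPep1 at 48 h fell to 4 without t0 replicate 1, to 5 without t0 replicate 2, to 4 without PpPep1 48 h replicate 1 and to 5 without its replicate 3, and the count of 5 with PpPep2 fell to 3 without t0 replicate 1 or 2 or without PpPep2 48 h replicate 1 or 2. The call of Peroxidase 44 was lost without t0 replicate 2 or 3 and without PpPep1 48 h replicate 2 or 3 (adjusted p of 0.0212 to 0.0311 by edgeR). That of PRUPE_1G319000 was lost without any one of the 6 libraries compared (0.0129 to 0.0314). PRUPE_6G343900, the remaining member called lower and without a description, kept its call in each of 13 alternative settings. Its log2 fold change was -1.18 (SE 0.23, adjusted p = 0.000656 by edgeR). The calls of PRUPE_2G121500 were lost without t0 replicate 1 with each peptide, without PpPep1 48 h replicate 1 with PpPep1, and without t0 replicates 2 or 3 or PpPep2 48 h replicates 1 or 2 with PpPep2. PRUPE_3G272200 lost its call with PpPep1 without t0 replicate 1 or 2 or PpPep1 48 h replicate 1 or 3. In the 4 comparisons of 24 and 48 h with t0, 18 of the 92 members were called at least once, 74 in none and 0 in all. In the single comparisons 0.925% to 4.52% of all genes tested were called in either direction. The share of all genes called at least once was not counted, so the 18 are not read as a result about the members.

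**Figure D3:**
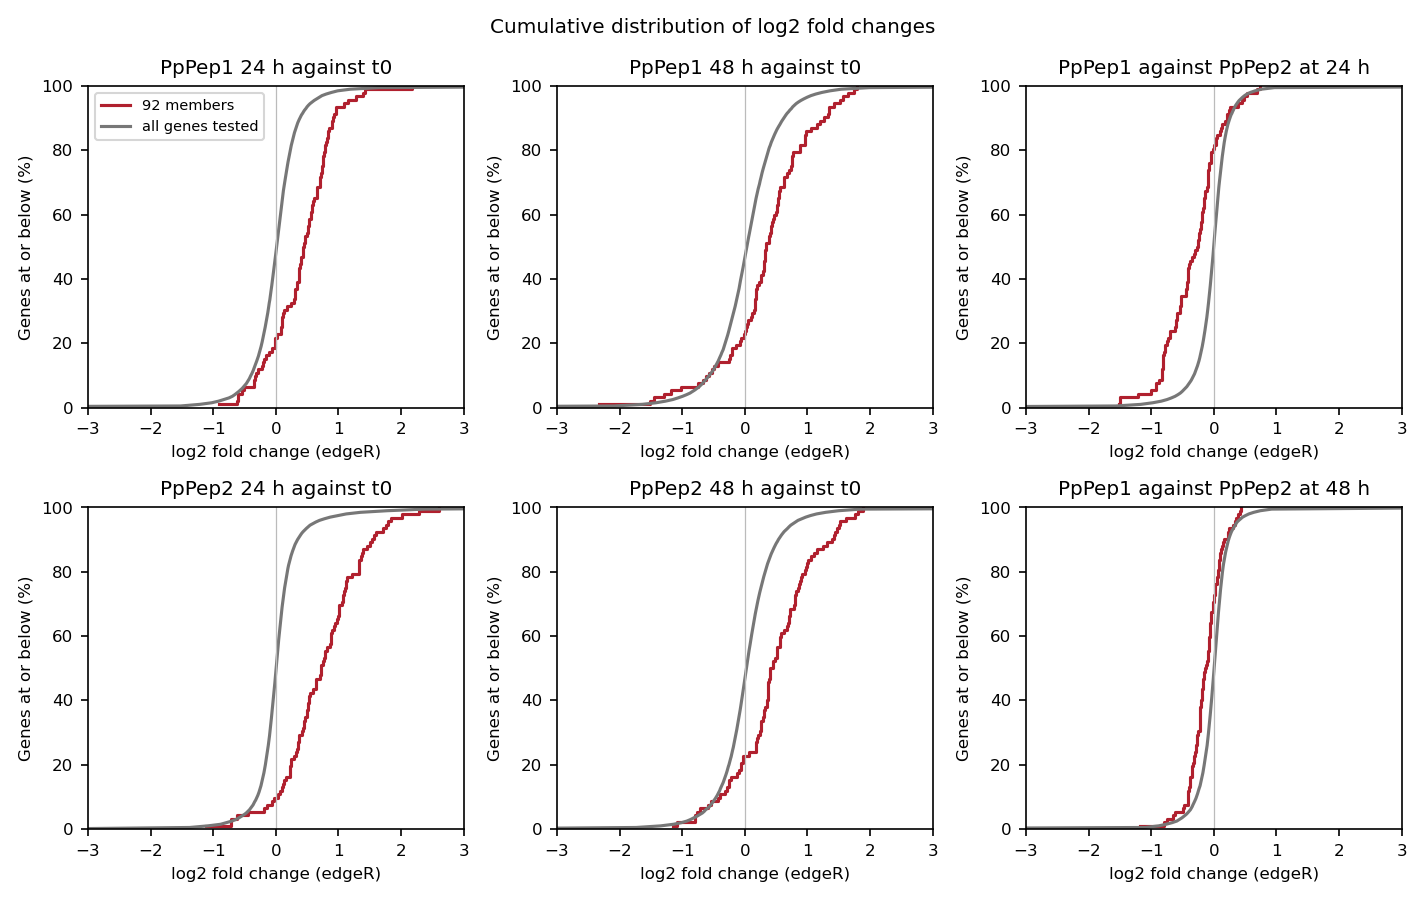
Cumulative share of genes (%) against edgeR log2 fold change for the 92 members (red) and all 18586 genes tested (grey), for PpPep1 or PpPep2 against t0 at 24 and 48 h and for PpPep1 against PpPep2 at the same times. Against t0 the members' medians lie at 0.34 to 0.72 where those of all genes lie at 0.00 to 0.03, and for PpPep1 against PpPep2 at 24 h the members' median is -0.26.

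The comparison of PpPep1 with PpPep2 at 24 and 48 h does not contrast the libraries of the rule. Those libraries do enter the shared fit, and so the estimate of the spread behind each p, SE and interval. At 24 h 0 of the 92 members were called by edgeR, where 0.0377% of all genes tested were called in either direction and 0.0323% lower with PpPep1, and DESeq2 called 1, PRUPE_2G220400, lower with PpPep1 (log2 fold change -1.49, adjusted p = 0.00358 by DESeq2), where it called 0.334% of all genes. At an unadjusted p under 0.05 edgeR had 1 member higher and 18 lower with PpPep1, where 7.8% and 7.48% of all genes tested reached this (15.3% in either direction). The median log2 fold change was -0.26 over the members and 0.00 over all genes tested, and 75 of the 92 members lay below 0. All 3 PpPep1 libraries lay below all 3 PpPep2 libraries in CPM for 26 members and above for 0, where the shares over all genes were 20.4% and 3.79%. IQM1 averaged 0.701 ± 0.0226 CPM with PpPep1 and 2.11 ± 0.399 CPM with PpPep2 at 24 h (log2 fold change -1.49, 95% interval -2.40 to -0.59, adjusted p = 0.101 by edgeR, SD, n = 3 each). SARD1 averaged 6.78 ± 0.344 CPM with PpPep1 and 12.8 ± 1.95 CPM with PpPep2 (log2 fold change -0.82, 95% interval -1.41 to -0.24, adjusted p = 0.158 by edgeR). BIR1 averaged 26.9 ± 3.82 CPM with PpPep1 and 43.7 ± 3.85 CPM with PpPep2 (-0.61, 95% interval -1.01 to -0.21, adjusted p = 0.127 by edgeR). In all 3 genes every PpPep1 library lay below every PpPep2 library, and none passed the adjusted threshold. No rule picked these 3 genes for this comparison, so they do not stand for the described members. The Avr9/Cf-9 gene (0.26), Peroxidase 44 (0.24), CAF1-11 (0.04) and the At1g11050 kinase (0.04) lay above 0. The remaining described members lay below 0. No flowcell held libraries of both peptides at 24 h, and with a flowcell term in the fit 0 members were called as well. That term was estimated from 1 h libraries, so it is no check of flowcell here either.

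At 48 h edgeR called 0 members between the peptides, 0 had an unadjusted p under 0.05 and DESeq2 called 0, where 0.00538% of all genes were called by edgeR and 10.4% had such an unadjusted p, 5.13% higher and 5.31% lower with PpPep1. All 3 PpPep1 libraries lay above all 3 PpPep2 libraries for 2 members and below for 4, where the shares over all genes were 6.26% and 9.48%. The members' median log2 fold change was -0.13, and 65 of the 92 lay below 0. The side depended on single libraries. By mean CPM 24 members were higher with PpPep1 and 68 with PpPep2, where 47.1% of all expressed genes were higher with PpPep1. The number higher with PpPep2 was 40 without PpPep1 replicate 2, so that 52 were then higher with PpPep1, and 46 without PpPep2 replicate 1. The 95% interval of the log2 fold change lay within -1 and 1 for 49 members at 48 h, for 32 at 24 h and for 63 at 1 h, so a 2-fold difference was outside the interval for these members alone.

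At 1 h, where the libraries are those of the rule, 0 members were called between the peptides by edgeR or DESeq2 and 13 had an unadjusted p under 0.05, all lower with PpPep1, where 6.8% of all genes tested reached this on the higher and 6.49% on the lower side (13.3% together) and 0.0161% were called. All 3 PpPep1 libraries lay below all 3 PpPep2 libraries for 5 members and above for 0, where the shares over all genes were 9.79% and 10.6%. By mean CPM 81 of the 92 members were lower with PpPep1 than with PpPep2, at a median ratio of 0.846, where 49.2% of all expressed genes were higher with PpPep1. Without PpPep2 replicate 2 this was 92 members and a median ratio of 0.713, and without PpPep2 replicate 1 it was 61 members and 0.949. Without PpPep2 replicate 2 edgeR called 1 member lower with PpPep1, PRUPE_1G204700 (log2 fold change -1.01, adjusted p = 0.000806), named because it was the lone call. WRKY40 differed by -0.28 (95% interval -1.28 to 0.73), BIR1 by -0.26 (-0.65 to 0.13) and CAF1-11 by 0.17 (-0.38 to 0.72) on the log2 scale between PpPep1 and PpPep2 at 1 h.

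**Figure D4:**
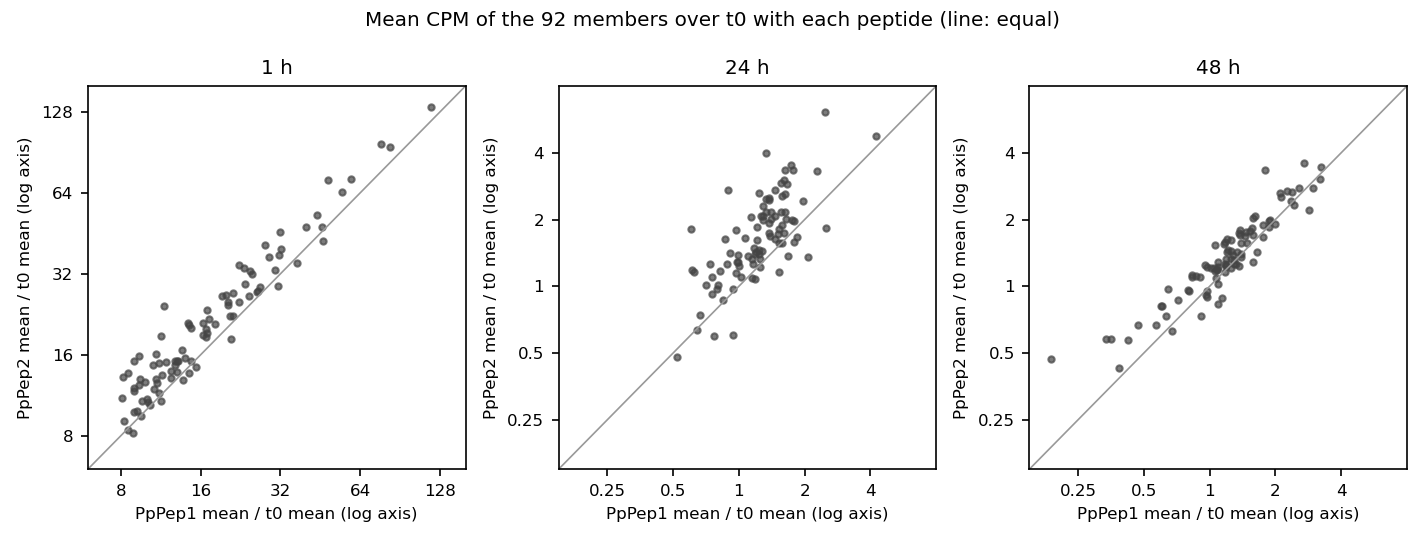
Mean CPM over the t0 mean with PpPep1 (x axis) and PpPep2 (y axis) for the 92 members at 1, 24 and 48 h, on log axes with the line of equal values. At 1 h 81 members and at 24 h 78 members lie on the PpPep2 side of the line, at 48 h 68. Of all 16689 expressed genes 49.2%, 27.3% and 47.1% lie on the PpPep1 side at 1, 24 and 48 h.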

How the data were processed

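Poly(A)-selected, stranded mRNA libraries of leaf blades were sequenced in 21 samples. Per the labels and the study's methods, the authors aligned reads with STAR 2.5.3a and estimated gene counts with RSEM 1.3.0 on the peach genome. The deposited table holds these estimated counts as whole numbers for 27107 genes and was not normalized. The authors' comparisons used DESeq2 1.20.0.

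Columns were assigned to libraries through the study's mapping statistics, by their totals (0.95 to 0.99 times the read pairs in single genes) and the number of genes holding 25% of counts. A column kept its header's library where both fitted and otherwise took the only library that fitted. Replicate numbers come from the library names there, and all 21 columns were used. Members were found on CPM, the count over the column total. The members, gene lists and named genes were chosen with earlier results of these data known.

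Tests used edgeR 4.0.16 (TMM, robust quasi-likelihood fit on all 21 libraries in 7 groups, genes kept by filterByExpr by group, 18586 genes tested including all 92 members), with Benjamini-Hochberg adjusted p under 0.01 and a log2 fold change past 1. SEs were taken from the log2 fold change and its F value, and intervals are 95%. DESeq2 1.42.0, RLE scaling, other filters, a replicate block, a flowcell term and leaving out libraries were alternatives, and the tests were checked on simulated data. Named genes were the up to 5 most abundant described members of each keyword class, the 3 highest and lowest at 1 h, and the 3 highest and lowest among called members per comparison, with at most 2 genes without a description in each direction. Identifiers matched 0 entries of the RefSeq table, so no sequences or promoter motifs were analysed here. The number of counts limits low members: the lowest count of a member in a library was 1.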

Additional observations from a re-analysis of the deposited data

How the results depend on the processing

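The number of members, 92, was 0 with the columns taken as headed and 270 with no t0 floor, and 85 to 103 with 1 library left out. Members called for PpPep1 24 h against t0 (1) numbered 0 with no filter on low counts, 0 with only the groups compared, 0 with the flowcell term, 3 with no fold threshold, 3 with DESeq2, and 0 to 1 with 1 library left out. For PpPep2 24 h against t0 (8) they numbered 13 with only the groups compared, 17 with DESeq2 and 3 to 10 with 1 library left out. For PpPep1 48 h against t0 (10) the range was 4 to 11 with 1 library left out. For PpPep2 48 h against t0 (5) they numbered 8 with no fold threshold, 9 with only the groups compared, 8 with DESeq2 and 3 to 5 with 1 library left out. Between PpPep1 and PpPep2 DESeq2 called 1 at 24 h, and leaving out 1 library gave 0 to 1 at 1 h. For the ratio of PpPep1 1 h to t0, the geometric mean over members was 17.2 and the median 14.7, which are different statistics. The cause of the shifts in member counts was not tested. Apart from DESeq2 above, the shares of all genes called under these settings are not given. A changed count is therefore not read as particular to the members. No called log2 fold change changed sign. The side on which most members lay between the peptides at 48 h did change: 68 were higher with PpPep2, but 40 without PpPep1 48 h replicate 2. Of the other settings on counts and levels 60 stayed within the margin and 15 did not, and with 1 library left out 51 did and 18 did not. For single called members 154 of the other settings kept the call and 23 lost it, and with 1 library left out 98 kept their call or side, 63 lost the call and 1 count of sides moved.

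Replicate numbers are shared between groups but the labels tie them to no batch. Deviations of same-numbered libraries correlated at -0.184 to 0.251 over the comparisons, so the numbers were not taken as pairs. With the replicate block 0 members were called for PpPep1 24 h against t0, 10 for PpPep2 24 h, 7 for PpPep1 48 h and 5 for PpPep2 48 h, and 0 between the peptides at each time. The shares of all genes called with this block are not given either. The alternative with promoter motifs was not run.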
